A study of Mus musculus with 9 samples.

Results

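The Hes and Hey genes encode basic helix-loop-helix transcriptional repressors, and 8 of them were measured in otic and non-otic tissue of the mouse embryo: *Hes1*, *Hes3*, *Hes5*, *Hes6*, *Hes7*, *Hey1*, *Hey2* and *Heyl*. They were taken as every probe whose gene symbol on the array was one of these names, which gave 12 probes out of 25697 on the array, and 8 gene symbols out of 18120. *Hes6* had 3 probes, *Hes5* and *Hey2* had 2 probes each, and the other genes had 1. The probes were chosen by symbol, while the set of genes was proposed with earlier results of these arrays known.

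RNA was extracted from dissected tissue of CD-1 embryos at E10.5 and hybridized to 9 Illumina MouseRef-8 arrays of 1 colour. The OV group held 3 pools of otic vesicles, the closed epithelial sacs that form the inner ear. The periotic tissue group held 3 samples of the tissue around the vesicle, which per the study's methods included mesenchyme and hindbrain. The embryo-minus-otic group held 3 samples of whole embryos from which the greater otic region had been removed. All groups shared strain and age, the labels name no transgene or treatment in any of them, and the methods describe 3 litters without saying which array came from which litter. The *p*-values therefore measure the spread between these pools.

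Most Hes and Hey genes are switched on when the cleaved intracellular domain of a Notch receptor enters the nucleus and joins the DNA-binding protein RBPJ. The repressors then bind E-box or N-box DNA, and Hes proteins recruit Groucho/TLE co-repressors. Among the best known targets of the family are the proneural genes that start neuronal differentiation. In the developing inner ear, Notch signalling through the ligand Jag1 marks the prosensory domain, and in the neural tube *Hes1*, *Hes3* and *Hes5* keep progenitor cells from differentiating.

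Promoter windows of 4 of the 8 genes could be read from RefSeq on build GRCm38.p6, each reaching from 250 bases before the annotated start to 50 bases from it onward, and the sites below are shown because RBPJ acts through the core TGGGAA. This core was searched on both strands. Of the 5 windows, 1 each for *Hes5*, *Hes7* and *Hey2* and 2 for *Hes6*, 3 held the core, against 25.6% of all 32851 windows in the same table. *Hes5* (chr4:154960673-154960972, plus strand) held 2 cores and so did *Hey2* (chr10:30842734-30843033, minus strand), and 3.79% of all windows held 2 or more. *Hes7* (chr11:69120203-69120502, plus strand) held 1 core and both windows of *Hes6* held none. The 5 cores are printed 5′ to 3′ on the strand that reads TGGGAA, with the core in capitals.
Hes5, first site: atgtccgggctgTGGGAAcgcgctcgccct
Hes5, second site: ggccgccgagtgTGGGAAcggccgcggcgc
Hes7, only site: tagccccaaatgTGGGAAgtgaggggagga
Hey2, first site: ttggcagaggcgTGGGAAtgccaccgcgca
Hey2, second site: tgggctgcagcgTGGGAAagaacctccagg
The *Hes5* cores began 226 and 82 bases before the start, on the opposite strand and on the strand of the gene respectively. The core of *Hes7* began 180 bases before the start, on the opposite strand. The annotated spans of *Hes5* and *Hes7* begin before the starts used here, at chr4:154960626 and chr11:69118906. The cores of both genes therefore lie within the annotated spans. The *Hey2* cores began 207 and 3 bases before the start, again the first on the opposite strand and the second on the strand of the gene, so that the second core spans the start. The 250 bases before the *Hey2* start are shown whole, because both probes of this gene differed between the groups, and the first core appears in them in capitals as its reverse complement TTCCCA.
Hey2, before the start: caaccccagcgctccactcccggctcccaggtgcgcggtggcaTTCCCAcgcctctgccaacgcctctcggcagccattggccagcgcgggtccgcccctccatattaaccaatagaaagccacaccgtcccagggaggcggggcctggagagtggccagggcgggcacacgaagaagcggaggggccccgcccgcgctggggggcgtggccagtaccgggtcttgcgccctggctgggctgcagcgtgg
The E-box CACGTG, a palindrome counted once, was in none of the 5 windows and in 7.2% of all windows. The N-box CACNAG was present 2 times in 1 window of *Hes6* and 1 time in *Hes7*, against 42.5% of all windows with 1 or more. TATAAA was found only in that same *Hes6* window, and in 13.6% of all windows. A match of letters does not show that a factor binds there.

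Each value below is a normalized log2 intensity on 1 array, and "above background" means a detection *p*-value under 0.01 on that array. This held for 11283 to 12160 probes per array, or 43.9% to 47.3%. As a check of the dissections, 11 of 14 probes for otic epithelium genes were higher in OV than in periotic tissue, including a probe of each of the 8 listed genes on the array, and their summed normalized intensity lay between 6568 and 7185 (OV), 1173 and 1280 (periotic tissue), and 1337 and 1410 (embryo-minus-otic). Probes for hindbrain genes summed to between 4175 and 5113 in periotic tissue, between 1388 and 1536 in embryo-minus-otic tissue and between 702 and 797.9 in OV.

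At a *q*-value under 0.05, limma placed 4 of the 12 Hes and Hey probes higher and 3 lower in OV than in periotic tissue. Over all probes of the array, 5.07% were higher and 5.15% were lower in this comparison. Against embryo-minus-otic tissue, 4 probes were again higher and 3 lower in OV, with 5.89% and 5.51% of all probes. Between the non-otic groups, 2 probes were higher and 1 was lower in periotic tissue, with 2.86% and 2.95% of all probes. All Hes and Hey probes but that of *Hes7*, 11 in all, were above background throughout some group, and among the 11849 probes detected on every array of some group the called share, in either direction, was 20.9%, 23.2% and 12.1% in these 3 comparisons. The probes called in OV against periotic tissue came from 5 genes, *Hes3* and *Hes5* lower and *Hes6*, *Hey1* and *Hey2* higher, and the call against embryo-minus-otic tissue came from the same 5 genes. These comparisons share the OV arrays and are not independent of each other. The median log2 difference of the 12 probes was 0.14 for OV minus periotic tissue, 0.13 for OV minus embryo-minus-otic and 0.10 for periotic tissue minus embryo-minus-otic, while the medians over all probes were 0.00, 0.0043 and 0.0066.

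**Figure D1:**
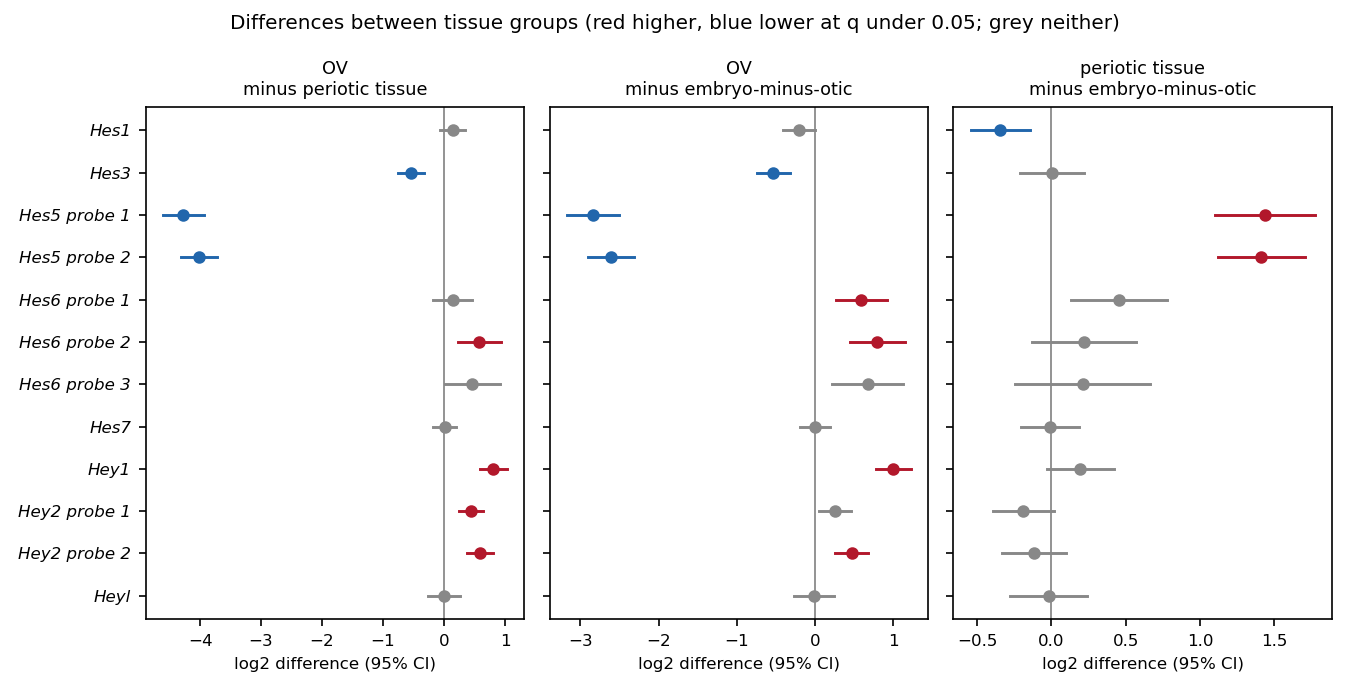
Fitted log2 difference (x axis) with its 95% confidence interval for each of the 12 Hes and Hey probes (y axis) in the 3 comparisons, coloured red where higher and blue where lower at a *q*-value under 0.05. The *Hes5* probes lie far to the left in both OV panels, at -4.27 and -4.02 against periotic tissue, and the *Hey1*, *Hey2* and *Hes6* probes lie to the right of 0.

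*Hes5*, the Notch effector of neural progenitors, was the member that differed most. In OV its first probe (ILMN_1253414, numbered by mean intensity) read 6.41, 6.17 and 6.31. In periotic tissue it read 10.41, 10.90 and 10.39, and in embryo-minus-otic tissue 9.35, 9.30 and 8.75. The OV arrays lay lowest (mean 6.29 ± 0.123, SD, n = 3), the periotic arrays highest (10.57 ± 0.29) with the embryo-minus-otic arrays between them (9.13 ± 0.334), and none of the 3 groups overlapped. The second probe (ILMN_2624153) read 6.42, 6.05 and 6.06 in OV. It read 10.13, 10.46 and 9.99 in periotic tissue, with 8.76, 8.98 and 8.59 in embryo-minus-otic tissue, which is the same order of groups, again without overlap.

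In OV the *Hes5* signal was near the limit of detection, since the first probe was above background on 2 of 3 OV arrays and the second on 1 of 3, and both were above background on all 6 non-otic arrays. The first probe was 19.3-fold lower in OV than in periotic tissue (log2 difference -4.27, SE 0.158, limma *q* = 5.7e-11) and the second 16.2-fold lower (-4.02, SE 0.137, limma *q* = 2.63e-11). Against embryo-minus-otic tissue the probes were 7.15-fold lower (limma *q* = 5.13e-09) and 6.08-fold lower (limma *q* = 3.14e-09). With background correction by neqc, which subtracts background as inferred through the detection *p*-values, the differences from periotic tissue widened to -5.26 and -5.13 on the log2 scale, and those from embryo-minus-otic tissue to -3.76 and -3.63. Of all 25697 probes on the array, the first *Hes5* probe had the lowest fitted difference of OV minus periotic tissue and the second was at rank 5, and these ranks ran from 1 to 4 and from 4 to 6 over the alternatives tried.

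Periotic tissue also exceeded the rest of the embryo. The first *Hes5* probe was 2.70-fold higher in periotic tissue than in embryo-minus-otic tissue (log2 difference 1.44, SE 0.158, limma *q* = 2.38e-05) and the second was 2.66-fold higher (limma *q* = 7.06e-06). The probes ranked 18 and 23 from the top of all probes in this comparison, and between 13 and 48 and between 14 and 49 over the alternatives. The lowest places, 48 and 49, came with neqc. The first probe ranked 40 without embryo-minus-otic replicate 3 and 30 without periotic replicate 2. Over the 9 arrays the values of both *Hes5* probes moved together with a Pearson coefficient of 0.997, as a description of arrays that fall into 3 tissue groups.

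**Figure D2:**
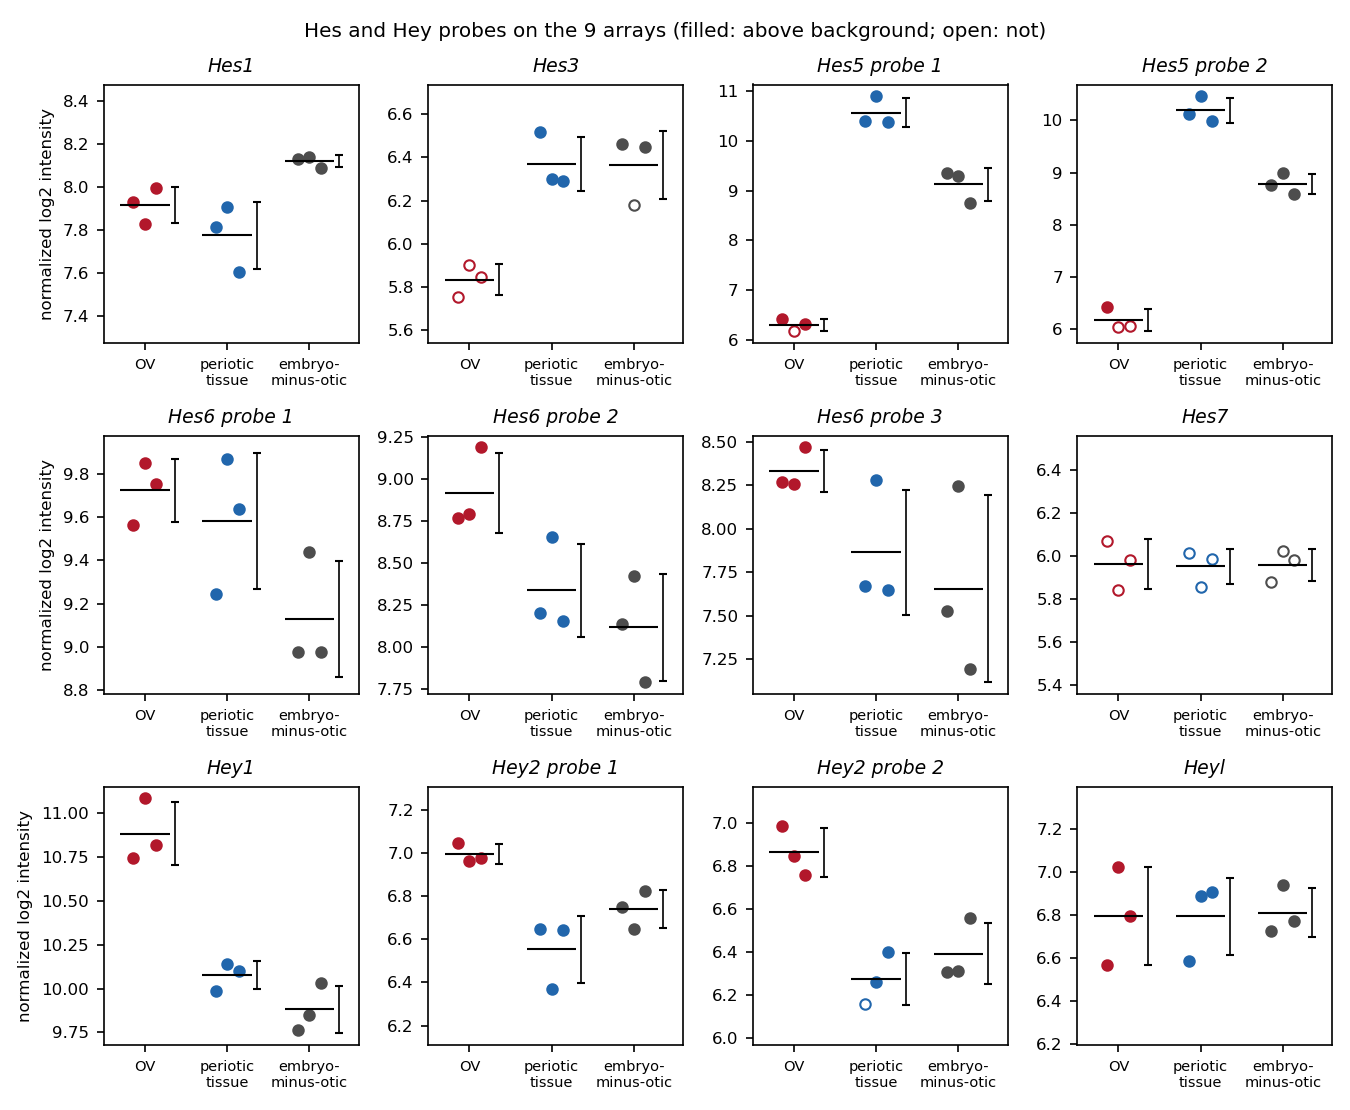
Normalized log2 intensity (y axis, with its own range in each panel) of the 12 Hes and Hey probes on the 3 arrays of each tissue group (x axis), with a line at the group mean and a bar of 1 SD to each side. Filled points are above background and open points are not. *Hes5* runs from about 6 in OV to above 10 in periotic tissue, *Hey1* lies above 10.7 on every OV array, and *Hes7* is open on all 9 arrays.

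Neural genes had summed intensities in the same order of groups as *Hes5*. Of 10 probes for neural progenitor genes, 7 were lower in OV than in periotic tissue and 4 were lower than in embryo-minus-otic tissue, and their summed normalized intensity lay between 1772 and 2084 (OV), 5529 and 6447 (periotic tissue), and 2911 and 3831 (embryo-minus-otic). *Pax6* and *Sox1* of this list were not above background on any array. Of 7 hindbrain probes, 6 were lower in OV than in periotic tissue and 5 were lower than in embryo-minus-otic tissue. Of 10 neuron probes, 6 and 3 were lower in these comparisons. Among all probes of the array detected throughout some group, 20.9% and 23.2% were called there, in either direction. The neuron sums lay between 1185 and 1738 (OV), 2644 and 3548 (periotic tissue), and 1965 and 2395 (embryo-minus-otic). *Tubb3* of the neuron list was above background on no array. In whole tissue, fewer cells of a type and less RNA per cell cannot be told apart, and the part of neural content in the *Hes5* difference was not tested.

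**Figure D3:**
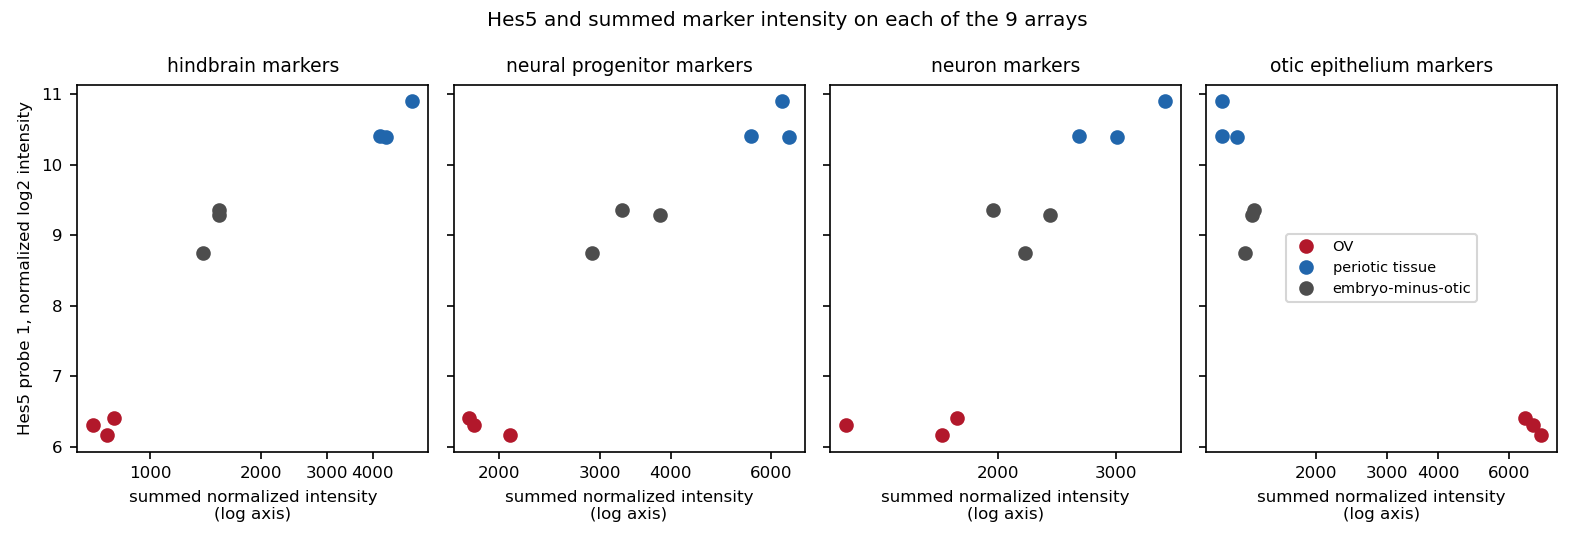
Normalized log2 intensity of the first *Hes5* probe (y axis) against the summed normalized intensity of 4 marker lists (x axes, log scale), with 1 point for each of the 9 arrays, coloured by tissue group. The periotic arrays are highest for *Hes5* and for hindbrain, neural progenitor and neuron genes, and the OV arrays are lowest for these and highest for otic epithelium genes.

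*Hes3*, a repressor of the early neural tube and the midbrain-hindbrain boundary, was also lower in OV, at a level close to background. It read 5.75, 5.90 and 5.85 in OV, where no array was above background. It read 6.52, 6.30 and 6.29 in periotic tissue, with all 3 arrays above background, and 6.46, 6.18 and 6.45 in embryo-minus-otic tissue, with 2 of 3 above. The OV arrays lay below all 6 non-otic arrays. Since OV gives only a bound, *Hes3* was at least 1.12-fold lower there than in periotic tissue (limma *q* = 0.00183) and at least 1.12-fold lower than in embryo-minus-otic tissue (limma *q* = 0.00201). The measured log2 differences were -0.54 and -0.53, and with neqc they were -1.005 and -0.99. Without normalization between arrays the call against periotic tissue was lost (limma *q* = 0.0747). The non-otic groups differed by 0.0051 (95% CI -0.21 to 0.22). Besides the neural progenitor, hindbrain and neuron genes given above, erythroid genes were lower in OV, on 5 of 7 probes in both comparisons. The erythroid sums lay between 14240 and 35080 (OV), 55830 and 61690 (periotic tissue), and 69950 and 74990 (embryo-minus-otic). *Gata1* of the erythroid list was above background on no array. The part of these cell types in the *Hes3* difference was not tested.

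*Hes1*, the most widely used Notch effector of the family, was above background on all 9 arrays and differed little. It read 7.93, 7.83 and 7.995 in OV, 7.82, 7.91 and 7.61 in periotic tissue, with 8.13, 8.14 and 8.09 in embryo-minus-otic tissue. The embryo-minus-otic arrays were highest and overlapped with neither of the other groups, whereas OV and periotic arrays overlapped. OV minus periotic tissue was 0.14 (95% CI -0.059 to 0.34, limma *q* = 0.5) and OV minus embryo-minus-otic was -0.20 (limma *q* = 0.231). Periotic tissue was lower than embryo-minus-otic tissue by a log2 difference of -0.34 (SE 0.094, limma *q* = 0.0438), and this call was lost in 15 of 18 alternatives, among them the omission of any 1 OV array, any 1 embryo-minus-otic array, or periotic replicate 1 or 3 (limma *q* from 0.0505 to 0.176). Of 9 mesenchyme probes, 8 were lower in periotic tissue than in embryo-minus-otic tissue, with sums from 1424 to 1773 against 2564 to 3140. Among all probes of the array detected throughout some group, 12.1% were called in this comparison, in either direction. The part of tissue content in the *Hes1* difference was not tested.

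*Hes7*, the oscillating repressor of the segmentation clock in presomitic mesoderm, was not above background on any of the 9 arrays, and its values lay between 5.84 and 6.07 with all groups overlapping. No fold Δ was taken for it. Of 12 probes for other genes of the presomitic mesoderm and tail bud, 3 were detected throughout 1 group or more. *Cdx2*, a posterior homeobox gene, was at least 2.11-fold higher in embryo-minus-otic tissue than in OV (limma *q* = 5.33e-07) and *T*, the Brachyury gene of the primitive streak and tail bud, at least 1.48-fold higher (limma *q* = 1.18e-05). *Tbx6*, a determinant of presomitic mesoderm, was above background there on 2 of 3 arrays and at least 1.29-fold higher (limma *q* = 0.0194). The call for *Tbx6* was lost without embryo-minus-otic replicate 1 or OV replicate 2 or 3. These 3 genes were not above background in OV or in periotic tissue. *Axin2*, a feedback inhibitor of Wnt signalling, was 1.42-fold higher in periotic tissue than in embryo-minus-otic tissue (limma *q* = 0.0258). This call was lost with neqc (limma *q* = 0.08), in a model of those 2 groups alone (0.0545), and without embryo-minus-otic replicate 3 (0.115) or periotic replicate 2 (0.141). *Mesp1*, *Mesp2* and *Ripply1*, which act with *Hes7* in segmentation, were above background on no array.

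*Hes6* is unlike its relatives in that it promotes neuronal differentiation and opposes *Hes1*. Its first probe (ILMN_2791952) read 9.57, 9.85 and 9.76 in OV, 9.25, 9.87 and 9.64 in periotic tissue, with 8.98, 9.44 and 8.97 in embryo-minus-otic tissue. The second (ILMN_2608043) read 8.76, 8.79 and 9.19 in OV, 8.20, 8.65 and 8.15 in periotic tissue, with 8.14, 8.42 and 7.79 in embryo-minus-otic tissue. The third (ILMN_1214126) read 8.27, 8.26 and 8.47 in OV, 7.67, 8.28 and 7.65 in periotic tissue, with 7.53, 8.24 and 7.19 in embryo-minus-otic tissue. On all 3 probes the OV mean was the highest, no OV array overlapped with an embryo-minus-otic array, and replicate 2 was the highest array of both non-otic groups.

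The probes of *Hes6* were higher in OV than in embryo-minus-otic tissue by 1.51-fold (limma *q* = 0.0177) and 1.74-fold (limma *q* = 0.00374) for the first and second probe, and the third stood at 1.598-fold with a limma *q* of 0.0529. The call for the first was lost without OV replicate 2 or 3 or embryo-minus-otic replicate 1 or 3 (limma *q* from 0.061 to 0.0843), and also with neqc (0.0663) or median normalization (0.0774). The third passed in 8 of 18 alternatives: without embryo-minus-otic replicate 2 (limma *q* = 0.00086) or periotic replicate 2 (0.0325), without normalization between arrays (0.0101), with either detection filter (0.0409 and 0.0431), with an intensity trend (0.0314), with array weights (0.0293) and with the replicate block (0.00932). Against periotic tissue, only the second probe passed, at 1.49-fold (log2 difference 0.58, SE 0.164, limma *q* = 0.0342), and this call was lost without OV replicate 2 or 3 or periotic replicate 1 or 3 (limma *q* from 0.0564 to 0.179), and also with neqc (0.12), median normalization (0.268) or none (0.0985). The first probe differed there by 0.14 (95% CI -0.19 to 0.47) and the third by 0.47 (95% CI 0.015 to 0.92, limma *q* = 0.24), both with overlapping arrays. Periotic tissue minus embryo-minus-otic ranged from 0.21 to 0.45 over the 3 probes, with limma *q* from 0.114 to 0.741. The probes differ in how closely they follow each other over the 9 arrays, with Pearson coefficients of 0.786 and 0.822 between the first and the others and 0.938 between the second and the third.

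*Hey1*, a Notch target of endothelium and of many epithelia, was highest in OV. It read 10.75, 11.09 and 10.82 in OV, 9.99, 10.14 and 10.10 in periotic tissue, with 9.76, 9.85 and 10.03 in embryo-minus-otic tissue, and was above background on all 9 arrays. Every OV array (mean 10.88 ± 0.18, SD, n = 3) lay above every non-otic array (periotic mean 10.08 ± 0.0804, embryo-minus-otic mean 9.88 ± 0.136), and the non-otic groups overlapped. *Hey1* was 1.75-fold above periotic tissue in OV (log2 difference 0.81, SE 0.105, limma *q* = 5.67e-05) and 2.01-fold higher than in embryo-minus-otic tissue (1.00, SE 0.105, limma *q* = 6.03e-06). Both calls held in all 18 alternatives. Periotic tissue minus embryo-minus-otic was 0.20 (95% CI -0.030 to 0.42, limma *q* = 0.41). By OV fold Δ, the OV mean over the higher of the non-otic means, *Hey1* was at 1.75 and rank 291 of all probes.

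*Hey2*, best known from arteries and the heart and from pillar cells of the later organ of Corti, was also higher in OV, at a low level. Its first probe (ILMN_2657207) read 7.05, 6.97 and 6.98 in OV, 6.65, 6.37 and 6.64 in periotic tissue, with 6.75, 6.65 and 6.83 in embryo-minus-otic tissue. The second (ILMN_2657210) read 6.98, 6.84 and 6.76 in OV, 6.16, 6.26 and 6.40 in periotic tissue, with 6.31, 6.31 and 6.56 in embryo-minus-otic tissue, and fell below background on 1 periotic array. On both probes the OV arrays lay above all non-otic arrays. Against periotic tissue *Hey2* was higher by 1.36-fold (limma *q* = 0.00529) and 1.505-fold (limma *q* = 8.14e-04). Against embryo-minus-otic tissue the second probe was higher by 1.38-fold (limma *q* = 0.00536), while the first, at 1.19-fold, missed the threshold (limma *q* = 0.113). With neqc the differences of the first and second probe from periotic tissue were 0.71 and 1.03 on the log2 scale and that of the second from embryo-minus-otic tissue was 0.80. Without normalization between arrays the call of the first probe against periotic tissue (limma *q* = 0.289) and that of the second against embryo-minus-otic tissue (limma *q* = 0.485) were lost.

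Endothelial genes, measured beside *Hey1* and *Hey2*, had summed intensities that lay between 509.3 and 559.7 (OV), 612.5 and 699.6 (periotic tissue), and 664.6 and 748.3 (embryo-minus-otic). Of the 6 endothelial probes, 1 was lower in OV than in periotic tissue, 2 were lower than in embryo-minus-otic tissue and none was higher. Of these probes 5 were detected on every array of some group. Among all probes of the array so detected, 20.9% and 23.2% were called in these comparisons, in either direction. Smooth muscle and pericyte genes summed to between 452 and 513.7 in OV and between 477.3 and 523.4 in periotic tissue, with 1626 to 1865 in embryo-minus-otic tissue, where 3 of 7 probes were called higher than in OV. In that list *Cspg4*, *Rgs5* and *Tagln* were above background on no array. The otic epithelium genes described above and both pan-epithelial genes on the array were higher in OV, the latter with sums between 5958 and 6817 (OV), 371.5 and 481.4 (periotic tissue), and 635.6 and 1038 (embryo-minus-otic). The part of endothelial, smooth muscle and epithelial content in the *Hey1* and *Hey2* differences was not tested.

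*Heyl*, a Notch target of vascular smooth muscle and somites, was above background on all 9 arrays and did not separate the groups. It read 6.57, 7.02 and 6.80 in OV, 6.59, 6.89 and 6.91 in periotic tissue, with 6.72, 6.94 and 6.77 in embryo-minus-otic tissue, and all groups overlapped. OV minus periotic tissue was 0.0023 (95% CI -0.26 to 0.26) and OV minus embryo-minus-otic was -0.015 (95% CI -0.27 to 0.24). The precision therefore left room for a difference of about 0.26 in either direction on the log2 scale.

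Counting probes whose arrays did not overlap at all, 6 Hes and Hey probes lay higher and 4 lower in OV than in embryo-minus-otic tissue, where 13.1% of all probes lay higher and 11.8% lower. They were the probes of *Hes6*, *Hey1* and *Hey2* above, and those of *Hes1*, *Hes3* and *Hes5* below. Against periotic tissue 4 lay higher and 3 lower, with 12.3% and 12.8% of all probes. In the comparison of both non-otic groups 2 lay higher in periotic tissue, both of *Hes5*, and 2 lower, of *Hes1* and the first *Hey2* probe, with 10.6% and 9.19% of all probes.

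The probes of other genes whose values over the 9 arrays were most like those of a member were sought among 11838 probes above background. They are given as a description of arrays that form 3 tissue groups, and for *Hes5*, *Hes6* and *Hey2* the likeness is to the first probe alone. For *Hes5* they were *Fzd10* (Pearson coefficient 0.995), *Wnt7a* (0.994) and *Pde1b* (0.994). *Wnt7a*, which encodes a Wnt ligand, averaged 5.94 in OV, 8.97 in periotic tissue and 7.80 in embryo-minus-otic tissue. For *Hey1* they were *Brip1* (0.99), *Hcph* (0.988) and *Plekha4* (0.987), and *Brip1*, which encodes a DNA helicase, averaged 9.16, 7.75 and 7.54 in the same order of groups. For *Hey2* they were *Aaas* (0.978), *D030070L09Rik* (0.966) and *Mbnl2* (0.966), for *Hes3* *Rfc2* (0.978), *Suhw4* (0.961) and *Hspb8* (0.96), and for *Hes6* *2610507L03Rik* (0.977), *Dyt1* (0.945) and *2610020H15Rik* (0.926). The likeness was lower for *Hes1*, with *Shmt1* (0.946), *Hk1* (0.932) and *Nfkbib* (0.922), and for *Heyl*, with *Prim2* (0.913), *Exoc7* (0.888) and *BC018472* (0.88).

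Upstream of the repressors, 33 of 45 listed Notch pathway genes were on the array with 52 probes. Of these probes 5 were higher and 8 lower in OV than in periotic tissue, 5 were higher and 5 lower than in embryo-minus-otic tissue, and 8 were higher and 2 lower in periotic tissue than in embryo-minus-otic tissue. Of the 52 probes, 32 were detected on every array of some group. These included every called probe but the dimmer one of *Notch4*, which was lower in OV than in periotic tissue. Over all probes of the array detected in this way, 20.9%, 23.2% and 12.1% were called in these comparisons, in this order. *Jag1*, the Notch ligand of the prosensory domain, averaged 9.16 in OV, 7.98 in periotic tissue and 7.80 in embryo-minus-otic tissue, 2.27-fold (limma *q* = 5.39e-04) and 2.56-fold (limma *q* = 1.46e-04) higher in OV. *Lfng*, the glycosyltransferase that alters the choice of ligand, was above background on 3 OV arrays, 1 periotic array and no embryo-minus-otic array, which puts it at least 1.36-fold higher in OV than in the latter group (limma *q* = 1.84e-05).

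*Notch1*, a receptor, was 1.62-fold higher in OV than in embryo-minus-otic tissue (limma *q* = 0.00818), with a mean of 9.73 in OV and 9.66 in periotic tissue. *Furin*, which cleaves the receptor during its maturation, was 1.90-fold above periotic tissue in OV on its brightest probe (limma *q* = 4.13e-06). Lower in OV than in periotic tissue were *Dll3*, a ligand-like protein that acts within the cell (2.93-fold, limma *q* = 4.17e-07), and *Notch4*, a receptor of endothelium (2.69-fold on its brighter probe, limma *q* = 2.45e-07). So was *Dner*, a neuronal transmembrane protein (2.37-fold, limma *q* = 8.2e-04), which was above background on only 1 OV array. *Nrarp*, a feedback inhibitor that is itself a Notch target, averaged 10.72 in OV, 11.55 in periotic tissue and 10.16 in embryo-minus-otic tissue, and was 2.61-fold higher in periotic tissue than in the latter (limma *q* = 7.78e-07). The 2 probes of *Dtx4*, a ubiquitin ligase of the pathway, were 2.15-fold and 2.11-fold higher in that comparison. *Dlk1*, a non-canonical ligand, was 9.97-fold lower in OV and 11.1-fold lower in periotic tissue than in embryo-minus-otic tissue. The 3 probes of *Rbpsuh*, the array's name for the RBPJ gene, were above background on no array.

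**Figure D4:**
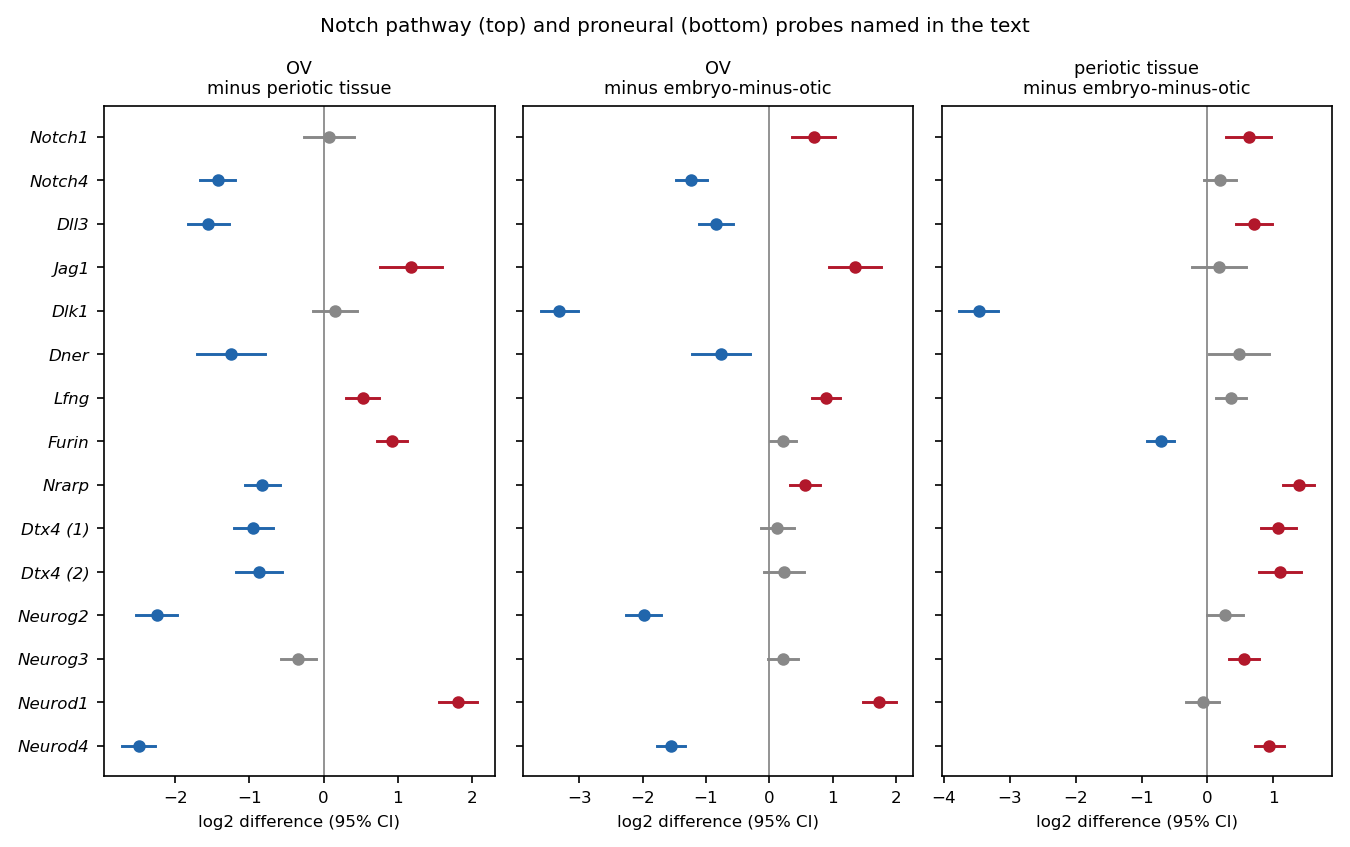
Fitted log2 difference (x axis) with its 95% confidence interval for the named probes of the Notch pathway (*Notch1* to *Dtx4*) and of the proneural genes (*Neurog2* to *Neurod4*) in the 3 comparisons, red where higher and blue where lower at a *q*-value under 0.05. *Jag1*, *Lfng* and *Neurod1* lie to the right of 0 in both OV panels, and *Notch4*, *Dll3*, *Neurog2* and *Neurod4* lie to the left.

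Downstream, 11 probes of 10 listed proneural genes were on the array, of which 1 was higher and 2 lower in OV in each OV comparison, and 2 were higher in periotic tissue than in embryo-minus-otic tissue. Of the 11 probes, 4 were detected throughout some group, among them every called one. Over all probes of the array so detected, the called shares were 20.9%, 23.2% and 12.1%. *Neurod1*, the factor of early otic neuroblasts, was 3.51-fold above periotic tissue in OV (limma *q* = 2.95e-08) and 3.33-fold higher than in embryo-minus-otic tissue (limma *q* = 5.48e-08). *Neurog2*, which starts neurogenesis in the neural tube, was not above background on any OV array. Its brighter probe was at least 3.54-fold lower there than in periotic tissue (limma *q* = 6.05e-09). The other *Neurog2* probe, above background on 2 periotic arrays, was not called (log2 difference -0.28, limma *q* = 0.113). *Neurod4*, above background on only 1 OV array, was 5.64-fold lower in OV than in periotic tissue (limma *q* = 1.74e-10). The probes higher in periotic tissue than in embryo-minus-otic tissue were those of *Neurod4* (1.92-fold, limma *q* = 2.63e-05) and *Neurog3* (1.47-fold, limma *q* = 0.00497), the latter not without normalization between arrays (limma *q* = 0.285). *Atoh1*, which specifies hair cells and hindbrain precursors, was above background on no array.

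Of 17 probes for 10 co-repressor genes that act with Hes or Hey proteins, 3 were higher and 2 lower in OV in each OV comparison. In periotic tissue 1 was lower than in embryo-minus-otic tissue. Of the 17 probes, 14 were detected throughout some group, among them every called one. Over all probes of the array so detected, the called shares were 20.9%, 23.2% and 12.1%. *Tle6*, a divergent Groucho relative, was 2.69-fold above periotic tissue in OV (limma *q* = 3.57e-07) and 1.86-fold higher than in embryo-minus-otic tissue (limma *q* = 5.56e-05). *Tle1*, a full-length Groucho protein, was lower in OV than in periotic tissue on both of its detected probes, by 1.61-fold and 1.55-fold, and these calls were lost with median normalization (limma *q* = 0.156 and 0.0676). The calls for *Hdac1* and *Tle2*, both higher in OV, were lost in several alternatives. Of 4 relatives of the family on the array, *Hes2*, *Helt* and *Bhlhb3* were above background on no array. *Bhlhb2*, a repressor of the same structural class, was above background on only 1 OV array. It was 1.59-fold lower in OV than in periotic tissue (limma *q* = 1.32e-04) and 1.54-fold lower than in embryo-minus-otic tissue (limma *q* = 2.81e-04).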

How the data were processed

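Per the study's methods and the labels, total RNA was amplified to biotinylated cRNA and read on bead arrays of 1 colour. For each of 25697 probes on 9 arrays the authors deposited an intensity that had not been normalized. The detection p-values deposited by the authors compare each probe with the negative control beads of its array. Bead numbers and probe sequences were not used here. The number of arrays, 3 in each group, limits the precision.

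The deposited intensities were converted to log2 values without an offset and quantile normalized over the 9 arrays. The authors' methods name both steps, but applied them to these arrays together with arrays of postnatal cochlear cells, which were not used here. All probes were fitted in 1 model of the 3 groups with limma 3.58.1 in R 4.3.3 (lmFit, eBayes), and *p*-values were adjusted over all probes by the Benjamini-Hochberg procedure. A call is a *q*-value under 0.05. A probe above background on no array of a group gives a bound: the mean of the brighter group is set against a floor, which on each array of the dimmer group is the dimmest detected probe, or the probe itself if that is brighter. Such a fold is written "at least". Levels of different probes were not compared. On simulated arrays with 200 of 25697 probes changed 2-fold, 96.5% (OV against periotic tissue), 94.5% (OV against embryo-minus-otic) and 94% (periotic tissue against embryo-minus-otic) of the changed probes were recovered. Smaller differences, such as those called for *Hes1*, *Hes3*, *Hes6* and *Hey2*, were not simulated.

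The members and the gene lists were chosen with earlier results of these arrays known. All probes of the 8 genes are named. From each list, at most 3 called probes by size of difference are named per comparison and direction, and for each member the 3 most alike probes. Alternatives were background correction by neqc (offset 16), normalization by medians or none, filters on detection at 0.01 or 0.05, a model restricted to the groups at hand, a block for replicate number, array weights, an intensity trend, and leaving out each array. Arrays were assigned to groups by their titles. Promoter sequences and their coordinates are RefSeq's on GRCm38.p6, and matched 4 of the 8 genes. The array files name no genome build. A gene of the proneural list is not reported here.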

Additional observations from a re-analysis of the deposited data

How the results depend on the processing

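Of the 17 called differences of Hes and Hey probes, 11 kept their call and direction in all 18 alternatives. Over 306 recomputed values of called differences, 275 stayed on their side of the threshold, 31 lost the call and 0 changed direction. The number of called probes was 7 for OV against periotic tissue, and fell to 4 (2 higher, 2 lower) without normalization between arrays, where the cause was not tested. Leaving out 1 array gave 6 to 7, 6 to 8 and 2 to 3 called probes in the 3 comparisons. Of 45 differences of named list probes, 31 kept their call throughout and 0 changed direction.

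Same-numbered arrays deviated together weakly, with coefficients from 0.0108 to 0.234 over 11849 probes, against -0.192 to 0.0637 for arrays of unlike number. The third OV array was closer to embryo-minus-otic replicate 1 (0.0637) than to replicate 3 (0.0108). No label ties the numbers to litters, so the main model did not pair the arrays by number. Whether the numbers mark litters was not tested. With the replicate number as a block, 7 probes were called in OV against periotic tissue, 8 in OV against embryo-minus-otic, where the third *Hes6* probe passed (limma *q* = 0.00932), and 3 between the non-otic groups, where the first *Hes6* probe passed (0.0106) and *Hes1* did not (0.0507).

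Differences that changed sign were all uncalled. With 1 array left out, OV minus periotic tissue ranged from -0.029 to 0.283 for the first *Hes6* probe, from -0.042 to 0.073 for *Hes7* and from -0.111 to 0.115 for *Heyl*, and *Heyl* was at -0.042 with median and -0.046 with no normalization. OV minus embryo-minus-otic ranged from -0.049 to 0.066 for *Hes7* and from -0.127 to 0.098 for *Heyl*; *Hes7* was at -0.003 with median normalization, -0.140 with none and -0.005 with array weights, and *Heyl* at 0.033 with median normalization. Periotic tissue minus embryo-minus-otic ranged from -0.085 to 0.057 for *Hes3*, from -0.022 to 0.503 for the third *Hes6* probe, from -0.050 to 0.039 for *Hes7* and from -0.073 to 0.086 for *Heyl*; *Hes3* was at -0.077 without normalization and *Heyl* at 0.075 with median normalization. The cause was not tested.

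Signal over background limits *Hes3*, *Hes7*, the second *Hey2* probe and *Hes5* in OV, where fold values depend on the background correction. Among the listed genes it limits *Dner*, *Neurod4* and *Bhlhb2* in OV and *Tle6* in periotic tissue, each above background on 1 array there.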
